A study of Rattus norvegicus with 6 samples.

Results

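The Htr2c intronic miRNA cluster is a row of hairpins that lie, per RefSeq, inside Htr2c, the X-linked gene for the serotonin 2C receptor. Its members were taken by name, as every mature strand of the hairpins miR-764, miR-1912, miR-1264, miR-1298 and miR-448. No measured value entered this rule, although earlier results of these data were known when the members were chosen. Of these 5 hairpins, 4 had a listed strand, miR-1264 had none, and the 6 mature miRNAs found were 6 of the 562 miRNAs listed. RefSeq places those 4 hairpins inside Htr2c and gives no miR-1264 there. Both strands were listed for 2 hairpins, miR-448 and miR-764. The hypothalamic arcuate nucleus (ARC) of Sprague-Dawley rats aged 8 to 10 weeks was profiled by miRNA-seq on Day 14 after surgery. CCI-ION, the chronic constriction injury of the infraorbital nerve, was made with loose ligatures on the left nerve, and in sham surgery the nerve was exposed and left unligated. Each group had 3 libraries, and the labels name no transgene or drug for either. The methods name male rats unless stated otherwise. The legend of the paper's miRNA heatmap gives a number of rats per group. Which of these rats, or how many, entered each library is not stated in the sources used here. The p-values therefore measure only the spread between these libraries, which may be technical. The comparison asked which ARC miRNAs differed in level after nerve injury.

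The serotonin 2C receptor is a Gq-coupled receptor that neurons and the epithelium of the choroid plexus use, and in the ARC it is known from the neurons that make proopiomelanocortin. An intronic miRNA can be transcribed with its host. The Drosha and Dicer enzymes then cut a hairpin out of the intron and release a short duplex. Either strand of the duplex, named 5p or 3p by its side of the hairpin, can then be loaded into an Argonaute protein, while the other strand is usually degraded. The loaded strand finds its mRNA targets mainly through its seed, the bases just after its 5′ end. The RefSeq table gave the bounds of Htr2c and not its exons, so the intronic position is background and was not checked here.

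The mature sequences are shown because they define what was counted and show the seeds of the 5 members that have a sequence here, all different. They are written 5′ to 3′ with the seed, bases 2 to 8, in capitals, and come from RefSeq on build GRCr8, plus strand of chromosome X, for 5 of the 6 members. miR-764-5p is named only.
miR-764-3p, chrX:115490702-115490724: gAGGAGGCcauaguggcaacugu
miR-1912-3p, chrX:115498072-115498090: cACAGAACaugcagugaga
miR-1298, chrX:115556987-115557008: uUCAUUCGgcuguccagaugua
miR-448-5p, chrX:115641967-115641988: aACAUCCUgcauagugcugcca
miR-448-3p, chrX:115642026-115642046: uUGCAUAUguaggauguccca
The members were 19 to 23 bases long, and their GC content ran from 42.9% for miR-448-3p to 56.5% for miR-764-3p, beside a median of 47.8% over the 512 listed miRNAs with a sequence. Among those 512 miRNAs, 0 others had the seed of any of these 5 members.

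The hairpins lie on 1 strand in the order miR-764, miR-1912, miR-1298 and miR-448, with 7.273 kb, 58.84 kb and 84.869 kb between neighbours. The hairpins of miR-1298, the most abundant member, and of miR-448, whose strands are compared further on, are written with the annotated mature strands in capitals.
Mir1298, chrX:115556947-115557085: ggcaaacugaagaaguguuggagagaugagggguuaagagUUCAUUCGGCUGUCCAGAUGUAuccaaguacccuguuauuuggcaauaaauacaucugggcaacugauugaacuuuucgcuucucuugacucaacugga
Mir448, chrX:115641955-115642066: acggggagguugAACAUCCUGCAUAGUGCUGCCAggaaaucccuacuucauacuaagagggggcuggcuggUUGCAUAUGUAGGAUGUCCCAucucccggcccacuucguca
In the structure RNAfold predicts for Mir448, 19 of the 22 bases of the 5p strand and 18 of the 21 bases of the 3p strand were paired. In that of Mir1298, with 1 annotated strand, 20 of its 22 bases were paired.

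Values are normalized counts, taken here as the reads of a miRNA divided by a size factor of its library. Reads worked out from the steps of the values came to 11115049 to 14313839 per library in the sham group and 8628309 to 11297551 in the CCI-ION group. Both groups came from dissected tissue, and neuron-enriched miR-124-3p was abundant in both, at 66984 ± 7552 and 38941 ± 3743 (SD, n = 3). The cluster was a small part of this RNA, 0.0380% ± 0.00628 of all reads in the sham group and 0.0607% ± 0.00610 in the CCI-ION group (SD, n = 3). In bulk tissue, fewer cells of a type and less RNA per cell cannot be told apart.

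Across the cluster, miR-1298 stood highest by far and was higher in every CCI-ION library than in any sham library, 5782 ± 498 against 4032 ± 434 normalized counts (SD, n = 3). miR-448-5p lay in the opposite direction, at 75.8 ± 3.47 against 119 ± 25.8. In the deposited scaling every CCI-ION library lay below every sham library. The partner strand miR-448-3p, both strands of miR-764 and miR-1912-3p had overlapping groups. In limma's test over the 555 miRNAs whose mean reached 1, 0 of the 6 members passed a Benjamini-Hochberg adjusted p of 0.05, beside 38 miRNAs or 6.85% of all tested. At an unadjusted p under 0.05 in limma there were 2 members, miR-1298 and miR-448-5p, beside 183 or 33.0% of all miRNAs tested. In the deposited scaling these 2 were also the members whose groups did not overlap, beside 40.7% of all miRNAs tested. A share of 2 in 6 was thus near or under the background by either measure.

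miR-1298 (listed as rno-miR-1298) has a single annotated strand, and it ranked 120 of the 562 listed miRNAs by mean level. Its normalized counts were 3834, 4530 and 3731 in the sham libraries and 5787, 5281 and 6277 in the CCI-ION libraries. All 3 CCI-ION libraries lay above all 3 sham libraries, and the lowest CCI-ION library was replicate 2. The CCI-ION mean was 1.43 times the sham mean, a log2 fold change of 0.52 (SE 0.13, 95% interval 0.19 to 0.86). limma gave an adjusted p of 0.0779, which missed the threshold. The exact two-sided permutation test gave p = 0.1, the smallest that 3 against 3 libraries allow. The counts rested on 3355 to 6220 reads per library, so that counting error was small beside the spread between libraries. With each library left out in turn, the log2 fold change lay between 0.46 and 0.61.

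miR-448-3p carries the more abundant strand of its hairpin. Its normalized counts were 300.6, 355 and 261 in the sham libraries and 421, 300.8 and 451 in the CCI-ION libraries. The groups overlapped, since CCI-ION replicate 2 lay beside sham replicate 1 and below sham replicate 2. The means were 306 ± 47.1 and 391 ± 79.4 (SD, n = 3), a log2 fold change of 0.34 (SE 0.21, 95% interval -0.18 to 0.86) with an adjusted p of 0.286 in limma. Its interval held both no difference and the whole difference of miR-1298.

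miR-448-5p, the less abundant strand, had 94.9, 146 and 117 normalized counts in the sham libraries and 78.2, 71.8 and 77.5 in the CCI-ION libraries. The CCI-ION libraries lay close together and below all sham libraries, of which replicate 1 was the lowest. The log2 fold change was -0.63 (SE 0.18, 95% interval -1.08 to -0.18), with an adjusted p of 0.0886 in limma, which missed the threshold. The exact permutation test again gave its smallest p of 0.1. These values rested on 83 to 176 reads in the sham libraries and 59 to 84 in the CCI-ION libraries. Sham replicate 1 and CCI-ION replicate 1 thus had nearly the same number of reads, 83 and 84, and were set apart by their size factors, 0.875 and 1.07. Per total reads, CCI-ION replicate 3 (72 of 9586078) lay just above sham replicate 1 (83 of 11115049). With total counts as the scale the groups of miR-448-5p therefore overlapped.

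**Figure D1:**
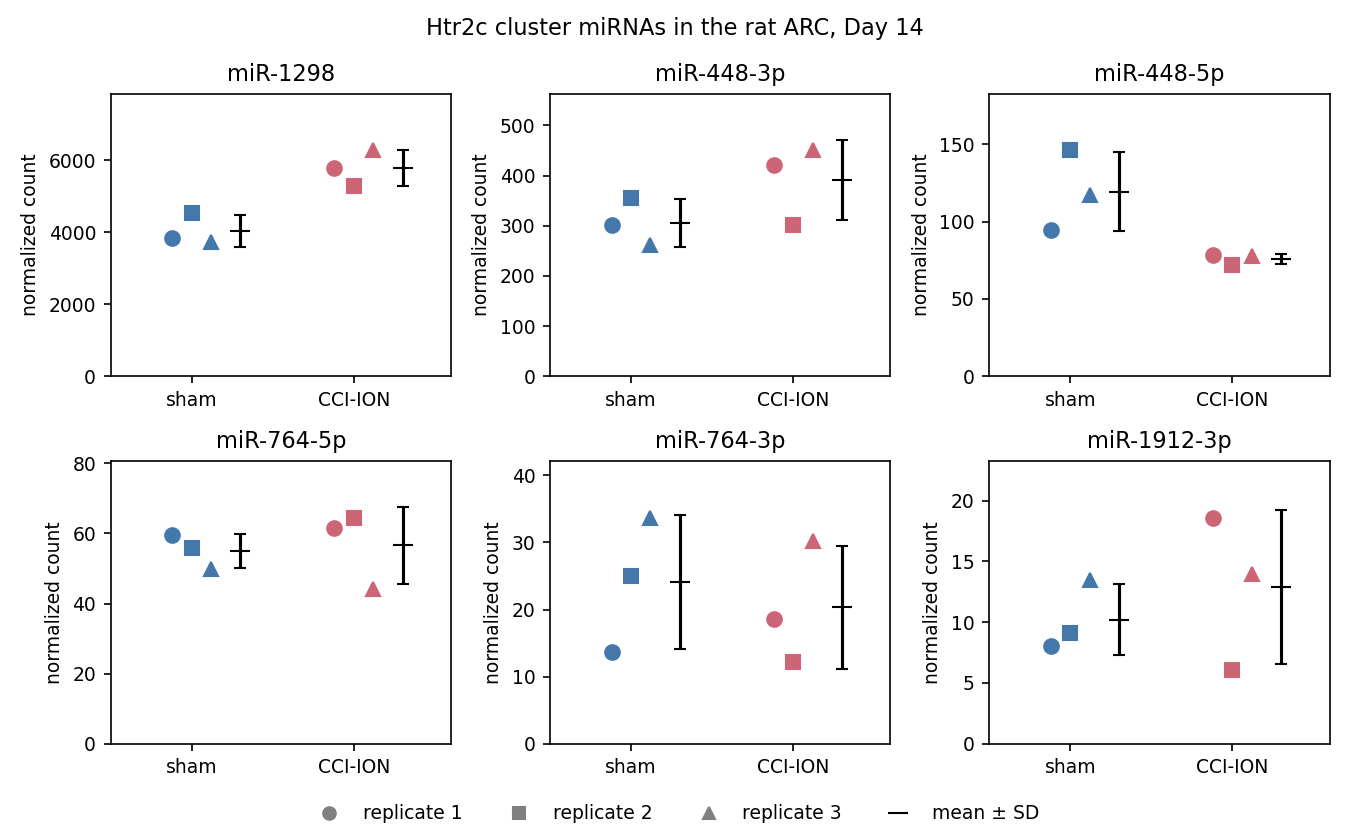
Normalized counts (vertical axes, from 0, a scale for each panel) of the 6 cluster miRNAs in the 3 sham (blue) and 3 CCI-ION (red) libraries, with replicates 1 to 3 as circle, square and triangle and black bars for the mean ± SD. In the deposited scaling, miR-1298 is higher (5782 against 4032) and miR-448-5p lower (75.8 against 119) in every CCI-ION library than in any sham library, and the groups of the other 4 overlap.

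miR-764 comes first among the hairpins of the members on the plus strand. Its 5p strand had 59.4, 55.7 and 49.7 normalized counts in the sham libraries and 61.4, 64.5 and 44.1 in the CCI-ION libraries. The CCI-ION libraries held both the highest and the lowest value of all 6. The log2 fold change of miR-764-5p was 0.03 (SE 0.18, 95% interval -0.42 to 0.48), with an adjusted p of 0.927 in limma. Its 3p strand had 13.7, 24.9 and 33.7 in the sham libraries and 18.6, 12.2 and 30.1 in the CCI-ION libraries. The spread of miR-764-3p within either group was wider than the distance between the means, 24.1 ± 10.0 and 20.3 ± 9.10 (SD, n = 3). For miR-764-3p the log2 fold change was -0.24 (SE 0.44, 95% interval -1.34 to 0.86), with an adjusted p of 0.722 in limma.

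miR-1912-3p was the lowest member, at rank 484 of 562. It had 8.00, 9.15 and 13.5 normalized counts in the sham libraries and 18.6, 6.09 and 14.0 in the CCI-ION libraries, and CCI-ION held its highest and its lowest library. The log2 fold change was 0.22 (SE 0.42, 95% interval -0.83 to 1.27), with an adjusted p of 0.736 in limma. The lowest library had 5 reads, which allow 1.62 to 11.7 (exact Poisson 95% interval), and the highest had 20 reads, which allow 12.2 to 30.9. Such intervals cover counting error only, since reads without molecular identifiers are not independent molecules. In every library 5 reads was also the smallest value above 0, so lower counts appear as 0. At this depth and this spread between libraries, a difference in miR-1912-3p smaller than its limma interval was not detectable.

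The order of levels was the same in all libraries down to the fifth place. miR-1298 lay above miR-448-3p, then miR-448-5p, miR-764-5p and miR-764-3p in 6 of 6 libraries, with no overlap between the ranges of neighbours. miR-764-3p lay above miR-1912-3p in 5 of 6 libraries and was equal to it in CCI-ION replicate 1, a ratio of 1 to 2.73 within a library. The ranges of these neighbours over all libraries overlapped. Within the CCI-ION group, replicate 2 was the lowest library for 5 of the 6 members and the highest for miR-764-5p. Lengths differ by few bases, but ligation and amplification favour some small RNA sequences, so levels of different miRNAs here compare read yields and not molecules.

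The ratio of miR-1298 to miR-448-3p was 12.8, 12.8 and 14.3 in the sham libraries and 13.8, 17.6 and 13.9 in the CCI-ION libraries. These overlapped, and the log2 change of 0.18 had an exact permutation p of 0.3. miR-1298 took 88.7% ± 0.244 of the summed normalized counts of the cluster in the sham group and 91.3% ± 0.729 in the CCI-ION group (SD, n = 3). The share of miR-448-3p was 6.71% ± 0.429 and 6.12% ± 0.763, and that of miR-448-5p was 2.61% ± 0.360 and 1.20% ± 0.0673. The sum of the cluster, 4546 ± 500.3 in the sham group and 6338 ± 580.2 in the CCI-ION group, therefore followed miR-1298 almost alone.

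The strands of miR-448 can be compared within a library, where the size factor cancels. There were 3.17, 2.43 and 2.23 normalized counts of miR-448-3p for each of miR-448-5p in the sham libraries, and 5.38, 4.19 and 5.82 in the CCI-ION libraries. The CCI-ION ratios were all higher than the sham ratios, and the mean ratio went from 2.61 ± 0.495 to 5.13 ± 0.845 (SD, n = 3). On the log2 scale the ratio of 5p to 3p was lower by 0.97 in the CCI-ION group, a change of -0.97 (SE 0.21, 95% interval -1.49 to -0.45), with an exact permutation p of 0.1, the smallest possible. In limma over the 190 hairpins with both strands tested, a test added after the data were seen, the change passed with an adjusted p of 0.0430. Of those hairpins 20 or 10.5% passed, miR-448 being the 20th by p, and 40.5% had groups without overlap. The call was lost without sham replicate 1 (adjusted p 0.0751), 2 (0.136) or 3 (0.153) and without CCI-ION replicate 1 (0.102) or 3 (0.0962). It held without CCI-ION replicate 2, at an adjusted p of 0.0371.

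miR-764 had the opposite strand bias, with more 5p than 3p in all 6 libraries. Its ratio of 3p to 5p was 0.231, 0.448 and 0.678 in the sham libraries and 0.303, 0.189 and 0.683 in the CCI-ION libraries. The ranges nearly coincided, and the log2 change in 5p to 3p was 0.27 (SE 0.59, 95% interval -1.22 to 1.75), with an adjusted p of 0.802 in limma. That interval is wide enough to hold a change of either sign larger than the one measured for miR-448.

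**Figure D2:**
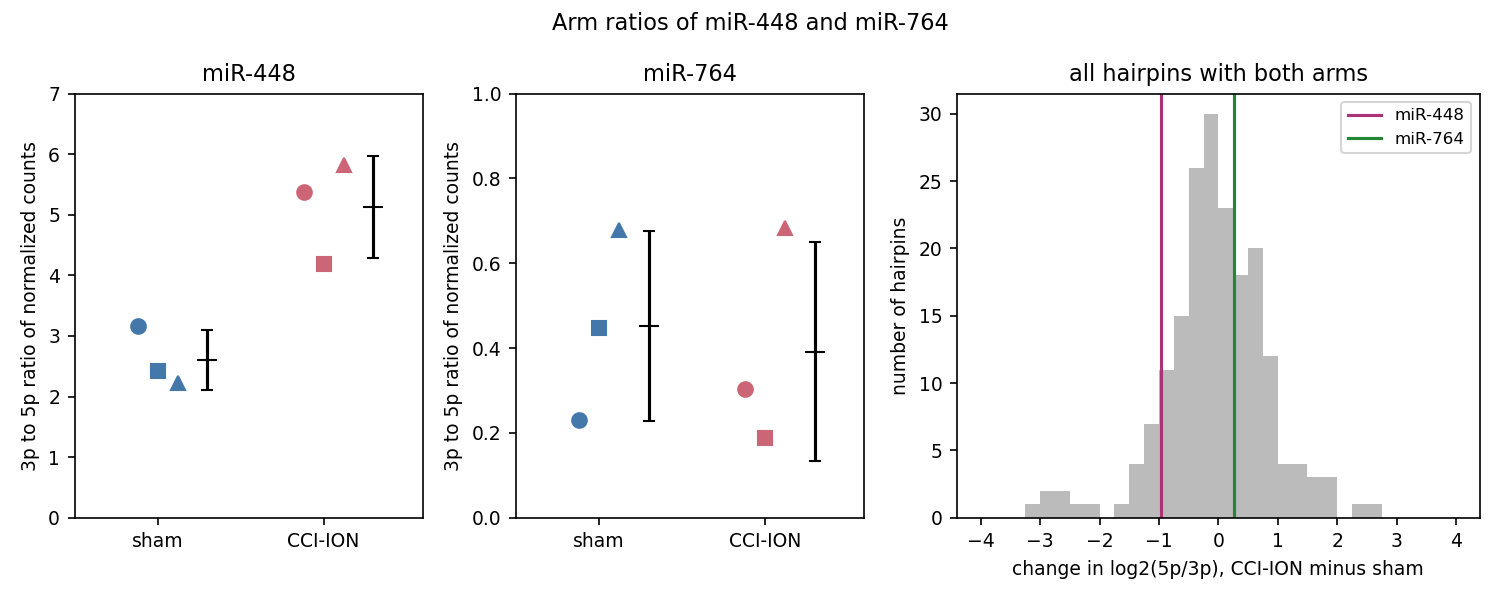
Left and middle, the ratio of 3p to 5p normalized counts of miR-448 and miR-764 in each sham (blue) and CCI-ION (red) library, with replicates 1 to 3 as circle, square and triangle and bars for the mean ± SD. Right, the number of hairpins (vertical axis) by the change in the log2 ratio of 5p to 3p between the groups for all 190 hairpins, with lines at miR-448 (-0.97) and miR-764 (0.27); the miR-448 ratio is higher in all CCI-ION libraries, and miR-448 is the 22nd in size of shift to 3p.

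The members were also set beside the miRNAs nearest to them in level. The neighbours of miR-1298 in mean level, miR-487b-3p at 5105 and miR-135a-5p at 4906, each lay above it in 3 of 6 libraries, and their log2 fold changes were -0.49 and -0.80, with adjusted p of 0.0597 and 0.159 in limma. miR-299a-3p and miR-497-5p, next to miR-448-3p, had log2 fold changes of 0.86 and 0.49, which did not pass either. Next to miR-448-5p, miR-138-2-3p had -0.47, with an adjusted p of 0.0834, and miR-487b-5p fell by 1.00 on the log2 scale, with an adjusted p of 0.0190 in limma. Next to the strands of miR-764 and to miR-1912-3p lay miR-666-3p, miR-150-3p, miR-652-5p, miR-331-5p, miR-3583-3p and miR-222-5p, with log2 fold changes from -1.36 to 1.63, and 0 of these 6 passed.

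**Figure D3:**
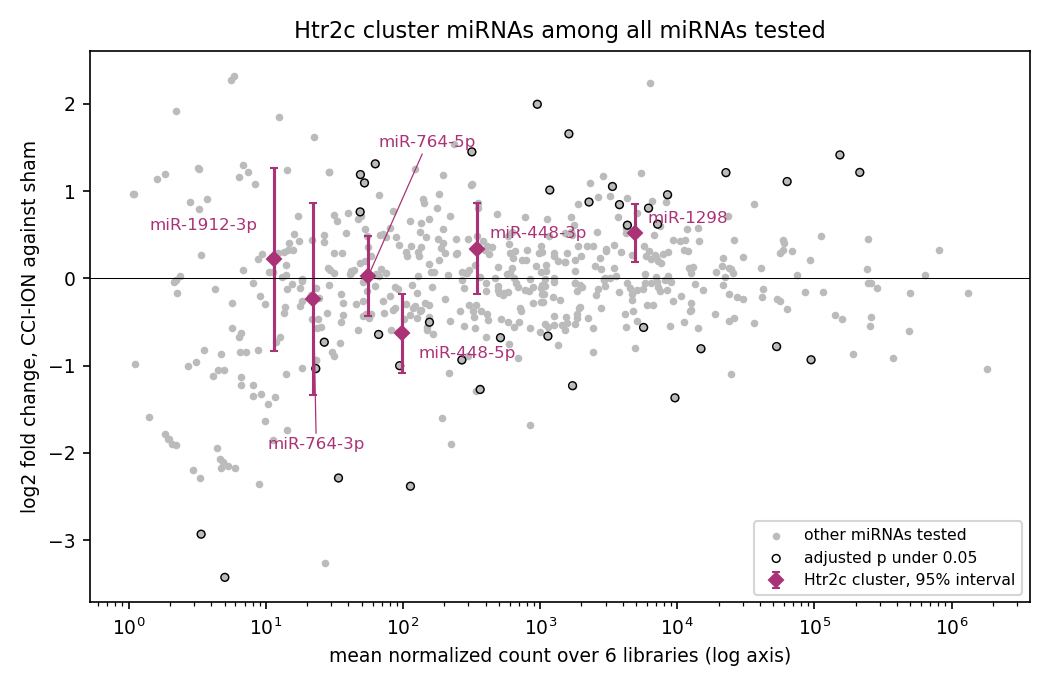
The log2 fold change of CCI-ION against sham (vertical axis) by the mean normalized count over the 6 libraries (horizontal log axis) for the 555 miRNAs tested, with the cluster as diamonds with 95% intervals and the 38 miRNAs of adjusted p under 0.05 ringed. No diamond is ringed, and only the intervals of miR-1298 (0.19 to 0.86) and miR-448-5p (-1.08 to -0.18) leave out 0.

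Likeness of profile was measured as the root mean square difference between log2 values centred on their own mean, over the 6 libraries and for the 488 other miRNAs with a mean of at least 10. The profiles most like that of miR-1298 were those of miR-345-5p at 0.0972, miR-362-5p at 0.124, miR-192-5p at 0.131, miR-540-5p at 0.134 and miR-1843b-5p at 0.136, beside a median of 0.390. Their log2 fold changes ran from 0.31 for miR-1843b-5p to 0.68 for miR-540-5p, and none passed in limma. The positive sign of all 5 follows from choosing them by closeness to miR-1298 over the same libraries. Among the members, miR-448-3p was 12th at 0.155, whereas miR-764-5p was 206th, miR-1912-3p 328th, miR-448-5p 404th and miR-764-3p 413th. Points from the same 6 libraries share depth and scaling, and the likeness is a description. Counting noise also widens the difference at low counts, and miR-1912-3p and miR-764-3p rest on 5 to 40 reads.

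RefSeq places a further miRNA inside Htr2c that the naming rule leaves out, miR-3552. It had 122, 158 and 126 normalized counts in the sham libraries and 96.8, 119 and 109 in the CCI-ION libraries. In the deposited scaling the groups did not overlap, beside 40.7% of all miRNAs tested. The gap was narrow, 119 in CCI-ION replicate 2 against 122 in sham replicate 1, and per total reads the groups overlapped. As deposited, miR-3552 was lower in the CCI-ION libraries, on the side of miR-448-5p and opposite to miR-1298. Its log2 fold change was -0.31 (SE 0.15, 95% interval -0.70 to 0.07), with an adjusted p of 0.208 in limma. The miRNAs inside this gene therefore had fitted changes of both signs, of which 0 of 7 passed.

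The miRNAs known to lie inside other host genes had a median log2 fold change of -0.38, beside -0.01 over all tested. In limma 0 of these 25 rose and 3 fell, beside 6.85% of all miRNAs tested that were called. These 3 were miR-338-3p, miR-218a-5p, which lies in the Slit genes, and miR-190a-5p, with log2 fold changes of -1.27, -0.93 and -2.29 and adjusted p of 0.0190, 0.0190 and 0.0334. The most abundant of that list, miR-128-3p, had a log2 fold change of -0.91 and an adjusted p of 0.0597. Of 48 other X-linked miRNAs tested, 1 was called higher and 3 lower in limma, with a median of 0.08. miR-532-5p rose, with a log2 fold change of 0.88, and miR-221-3p, the most abundant, and miR-98-5p fell, with -0.81 and -1.37, at adjusted p of 0.0435, 0.0208 and 0.00969. miR-421-5p, at 6.74 ± 1.63 in the sham group (SD, n = 3), was listed at 0 in all CCI-ION libraries. Since counts under 5 reads appear as 0, its sham values lay just above that floor and the equal zeros have no measured spread, so its call, counted among the 3, is not read as a fall. The cluster itself had a median of 0.12, with 4 of its 6 members above 0, and the X-linked list likewise had log2 fold changes of both signs.

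Since Htr2c is used by choroid plexus epithelium as well as by neurons, the cluster was set beside miRNAs known from these and other cell types. The choroid plexus and ependyma list held miR-204, miR-211, miR-34 and miR-449 hairpins. In limma 0 of its 8 miRNAs passed, beside 6.85% of all tested, and its median log2 fold change was 0.22. Its most abundant member, miR-204-5p, had 61076 ± 11718 and 75761 ± 13510 normalized counts, and none of the 8 was at 0 in any library. The summed level of the list ran from 68230 to 92624 in the sham libraries and from 87342 to 111586 in the CCI-ION libraries, which overlap. The cluster sum was 4.65%, 7.31% and 6.17% of that sum in the sham libraries and 7.31%, 5.14% and 7.41% in the CCI-ION libraries, so that relative to this list the groups overlapped, with a log2 difference of 0.14. Without each library in turn that difference lay between -0.04 and 0.31, and with means of log2 values in place of sums it turned to -0.19, so it has no set direction.

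Among all miRNAs tested, 6.85% were called in limma and 40.7% had groups without overlap. In the list of neuronal miRNAs, 0 of 19 rose and 1 fell in limma, with a median of -0.36. That 1 was miR-124-3p, which fell by 0.78 on the log2 scale, with an adjusted p of 0.0435, and the most abundant member was miR-128-3p. The list was not of 1 direction: 6 of its 19 log2 fold changes were above 0, among them 0.45 for miR-129-5p, which was picked out after its value was seen because it is also abundant, with a mean of 244898. The summed level of the list ran from 727213 to 945458 in the sham libraries and from 584767 to 695852 in the CCI-ION libraries, without overlap, and 1 of the 19 was at 0 in some library. Relative to that sum the cluster made 0.593%, 0.627% and 0.445% in the sham libraries and 0.977%, 0.824% and 1.18% in the CCI-ION libraries, a log2 difference of 0.84 without overlap. Without miR-128-3p in the list the difference was 0.29.

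The medians of the other cell type lists lay on either side of 0. Their counts stand beside 6.85% of all miRNAs called in limma and 40.7% with groups that did not overlap. In the pituitary and epithelium list, 1 of 14 rose, miR-203a-3p by 1.45 with an adjusted p of 0.0307 in limma, at a median of 0.91. Its most abundant member, miR-200b-3p, had 4335 ± 1244 and 8682 ± 4221 normalized counts, and the summed list ran from 16474 to 23397 and from 20821 to 51898, which overlap. The paper found miR-203a-3p mainly in neurons of the ARC by in situ hybridization. The place of miR-203a-3p in this list therefore does not give its cell type here. In the vessel wall list, 2 of 6 rose, miR-143-3p by 1.11 and miR-145-5p by 0.85, with adjusted p of 0.0334 and 0.0450 in limma and a median of 0.56, and its sums of 80930 to 106733 and 152272 to 166198 did not overlap. In the oligodendrocyte list, 1 of 5 fell, miR-338-3p, at a median of -0.56 and with miR-219a-2-3p the most abundant at 10610 ± 2532 and 7128 ± 237.1, and its sums of 13783 to 19985 and 10568 to 11402 did not overlap. Of the 4 hypothalamic neuroendocrine miRNAs of the miR-7 family, 0 passed in limma at a median of -0.58. miR-7a-5p, the most abundant miRNA of all, had a log2 fold change of -1.04 and an adjusted p of 0.0828, and the sums of its list ran from 2110780 to 3404790 and from 937531 to 1548650 without overlap. The part of these lists in the values of the cluster was not tested.

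**Figure D4:**
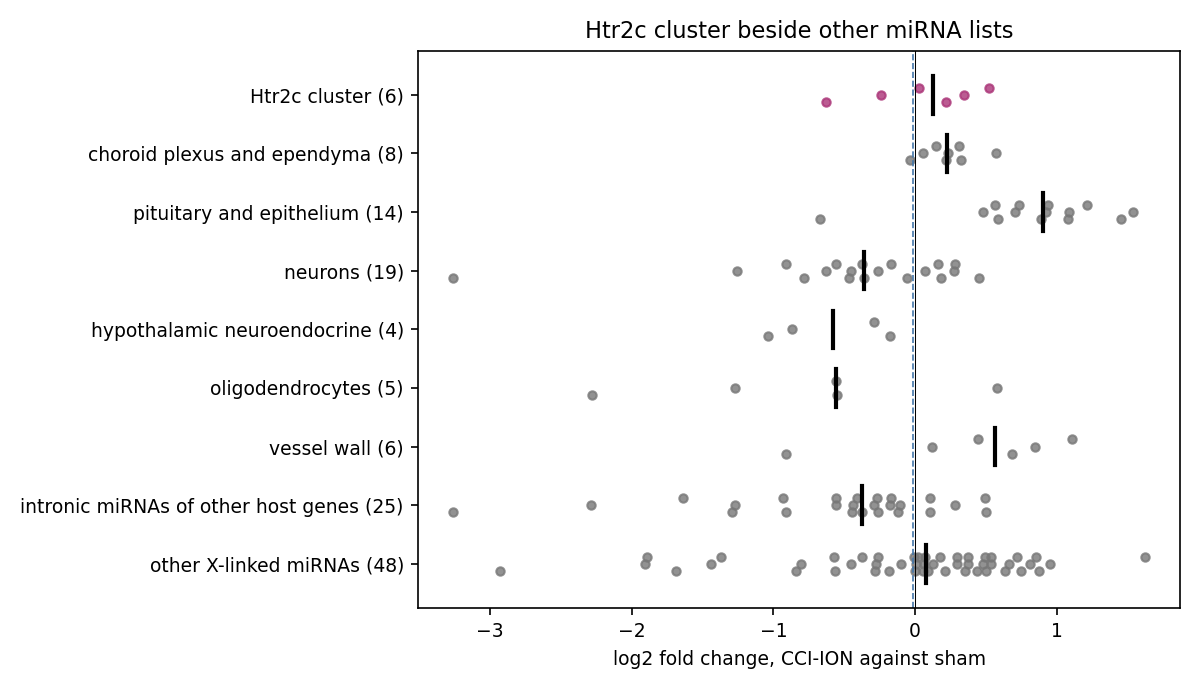
The log2 fold change of CCI-ION against sham (horizontal axis) of each miRNA tested (points) in the Htr2c cluster and the other lists, with the number tested in brackets, a black bar at each list's median, a solid line at 0 and a dashed line at the median of all miRNAs (-0.01). The cluster spans -0.63 to 0.52 around a median of 0.12, between the choroid plexus (0.22) and other X-linked (0.08) medians.

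The scaling of the libraries moved the members together. The median log2 fold change over all miRNAs was -0.01 as deposited, 0.18 with total counts as the scale and -0.26 with the upper quartile. miR-1298 had 0.52, 0.72 and 0.27 under these, and miR-448-5p had -0.63, -0.43 and -0.87. Relative to the median of all miRNAs under the same scaling, miR-1298 stood at 0.54, 0.54 and 0.53 and miR-448-5p at -0.61, -0.61 and -0.62. Scaling shifts every miRNA and the median by nearly the same amount. Such near constancy therefore follows from the arithmetic and is no test of either miRNA. miR-764-5p turned from 0.03 to -0.21 with the upper quartile and had 0.04 relative to the median both as deposited and there.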

How the data were processed

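miRNA-seq libraries of rat ARC, 3 sham and 3 CCI-ION, were grouped by their labels. The deposited values were of the unit signal. From their steps they were taken to be read counts per mature miRNA divided by a size factor per library. The submitters' processing notes name Bowtie 1.1.1, cutadapt 1.14 and rn6, and the counting and normalization are not given in the sources used here. Reads were worked out from the step of the values, and 100% of values under 10000 reads were whole within 0.02, with 5 reads the smallest above 0. log2(normalized count + 1) was fitted with limma 3.58.1 (R 4.3.3) for miRNAs whose mean reached 1, with Benjamini-Hochberg adjustment over all 555, checked on simulated data. Fold changes on this scale understate changes of low miRNAs. Exact permutation tests were two-sided. Hairpins were folded with RNAfold 2.7.2. The named miRNAs were all members, the neighbours of each in mean level, the 5 profiles most like miR-1298, and in each list the most abundant member and up to 4 called members. miR-338, miR-128 and miR-153 stand in 2 lists each, as does miR-504. Members and lists were chosen with earlier results of these data known. Libraries of a group differed beyond sampling noise.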

Additional observations from a re-analysis of the deposited data

How the results depend on the processing

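Among the members, an adjusted p under 0.05 appeared for miR-1298 when 10 reads were asked of each library (0.0446) or with an intensity trend in limma (0.0329), both at a log2 fold change of 0.52, and for miR-448-5p with the upper quartile (-0.87, adjusted p 0.0422) and with that read minimum (-0.63, 0.0473). A threshold of 0.1 took in both, at 0.52 and -0.63. Across the scalings, filters, pseudocounts, trend and block, the adjusted p in limma ran from 0.0329 to 0.249 for miR-1298 and from 0.0422 to 0.212 for miR-448-5p, with no change of sign. With the upper quartile miR-764-5p turned to -0.21 and miR-1912-3p to -0.0051. Leaving out each library gave 0.46 to 0.61 for miR-1298, -0.78 to -0.47 for miR-448-5p, 0.23 to 0.52 for miR-448-3p, -0.073 to 0.20 for miR-764-5p, -0.58 to 0.062 for miR-764-3p, -0.091 to 0.64 for miR-1912-3p, -1.12 to -0.87 for the 5p to 3p ratio of miR-448 and -0.13 to 0.75 for that of miR-764. The cluster sum against the choroid plexus list gave -0.19 with means of log2 values, and -0.04 to 0.31 without each library. Against the neuronal list it gave 0.47 with means of log2 values, 0.29 without miR-128-3p, and 0.69 to 0.97 without each library.

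The 38 miRNAs called became 94 with the upper quartile, 63 when the mean had to reach 10, 96 with the minimum of 10 reads per library, 62 with a pseudocount of 10, 88 with the trend and 100 at a threshold of 0.1, and 7 to 42 without each library, the lowest count without sham replicate 3. Calls were 19 higher and 19 lower as deposited, 42 and 9 with total counts, 10 and 84 with the upper quartile and 30 and 19 without the most abundant miRNA in the library sizes. The cause was not tested. The replicate numbers showed no clear pairing of the libraries. Deviations of same-numbered libraries correlated at -0.03, 0.19 and -0.01, and 2 of 6 libraries correlated best with their own number. With 3 libraries a group this check is too weak to exclude a pairing. With the replicate number as a block, 3 miRNAs and 0 of 190 hairpins were called, and no call of a member changed. The strand ratio of miR-448 (-0.97) then had an adjusted p of 0.110 in limma. The count tests on recovered reads and the trimmed-mean scaling that were planned were not run, because the unit could not be verified as whole reads. The filter of 10 reads left out miR-1912-3p. With 3 libraries a group the exact test cannot go below 0.1, and miR-1912-3p and miR-764-3p rest on 5 to 40 reads.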
